A study of Mus musculus with 16 samples.

Results

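Genes of the double-negative stage and of the Notch pathway, 10 in all, were followed across 16 RNA libraries of mouse CD4+CD8+ thymocytes. They were the receptors Notch1 and Notch3 and the Notch targets Dtx1, Nrarp and Hes1. The others were the early progenitor genes Kit, Lyl1, Hhex and Erg, and the transcription factor Runx2. The 10 members were taken by symbol from 46517 gene identifiers, and 8 of them were among the 14933 genes that passed a filter on low counts. Hhex and Erg did not pass it, and their levels are given without a place in the tests. The mice were 6 to 7 weeks old and each gave 1 library, made from total RNA of live CD4+CD8+ thymic cells isolated by flow cytometry. All of them were NOD-AI4, the non-obese diabetic strain with the transgenic receptor of AI4, a T cell clone that recognises a self antigen, so the controls carried that receptor too. The groups were 5 NOD-AI4-60A mice, which carry an Nfkbid transgene (2 females, 3 males), 5 NOD-AI4-Nfkbid-/- mice, labelled as Nfkbid knockouts (1 female, 4 males), and 6 NOD-AI4 controls without either change (3 females, 3 males). Nfkbid encodes a nuclear member of the IκB family that modifies NF-κB target gene transcription. The promoter of the transgene, the knockout allele and any shared litters are not stated in the labels.

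Notch receptors are cut when they bind a ligand on a neighbouring cell, and the freed intracellular part joins the DNA-binding protein RBPJ in the nucleus and switches on target genes. In the thymus this signal commits incoming progenitors to the T cell lineage, carries them through the double-negative stages, which lack CD4 and CD8, and declines after the pre-TCR signal that brings cells to the CD4+CD8+ double-positive stage. Dtx1 (Deltex, a ubiquitin ligase), Nrarp (an inhibitor of the Notch transcription complex) and Hes1 (a repressor) are direct targets often read as a measure of the signal. Kit, the receptor for stem cell factor, and the transcription factors Lyl1, Hhex and Erg belong to the earliest double-negative cells and are normally turned down before the double-positive stage. Runx2, a Runt-family transcription factor, is expressed in immature thymocytes as well as in bone.

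The promoters of the 4 tested members that were called higher in transgenic than in control libraries are shown. Each line holds the 250 bases before the RefSeq transcription start in GRCm38.p6, 5′ to 3′ on the gene's own strand, in lower case. Capitals mark a match on either strand to CAGNTG, a form of the E-box. The windows are chr2:26503823-26504072 (minus strand) for Notch1, chr5:120711670-120711919 (minus strand) for Dtx1, chr2:25180508-25180757 (plus strand) for Nrarp and chr8:84701207-84701456 (plus strand) for Lyl1.
Notch1: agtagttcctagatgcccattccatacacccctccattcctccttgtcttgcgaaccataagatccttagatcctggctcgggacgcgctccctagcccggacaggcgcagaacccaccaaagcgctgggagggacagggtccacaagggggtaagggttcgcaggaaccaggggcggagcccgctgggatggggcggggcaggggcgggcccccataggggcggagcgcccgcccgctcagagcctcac
Dtx1: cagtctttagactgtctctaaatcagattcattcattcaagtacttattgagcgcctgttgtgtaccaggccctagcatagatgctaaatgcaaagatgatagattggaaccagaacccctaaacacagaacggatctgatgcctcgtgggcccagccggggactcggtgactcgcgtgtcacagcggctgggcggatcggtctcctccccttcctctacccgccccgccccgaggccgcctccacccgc
Nrarp: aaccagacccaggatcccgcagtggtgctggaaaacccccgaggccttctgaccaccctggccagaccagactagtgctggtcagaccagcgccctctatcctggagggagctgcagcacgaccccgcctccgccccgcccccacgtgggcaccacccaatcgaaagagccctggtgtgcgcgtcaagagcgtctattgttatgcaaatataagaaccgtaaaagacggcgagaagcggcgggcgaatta
Lyl1: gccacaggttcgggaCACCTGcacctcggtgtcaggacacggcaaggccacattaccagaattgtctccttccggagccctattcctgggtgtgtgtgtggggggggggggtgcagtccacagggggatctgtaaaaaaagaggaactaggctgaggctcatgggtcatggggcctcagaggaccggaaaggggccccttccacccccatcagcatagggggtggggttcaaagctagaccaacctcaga
Of 12 such windows for 9 members, both strands read, 2 held CAGNTG (1 each of Lyl1 and Erg), against 44.8% of 32851 mouse promoter windows of the same length. Other forms of the E-box were not searched. The core bound by RBPJ, TGGGAA, was in 1 window, an alternative start of Erg, against 21.6% of all windows. A match describes the letters in this window and says nothing of binding.

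In the GENCODE M21 annotation of GRCm38, Notch1 lies on chromosome 2 (26457903 to 26516663, minus strand) and Notch3 on chromosome 17 (32120820 to 32166852, minus strand). Of the targets, Dtx1 lies on chromosome 5 (120680202 to 120711927, minus strand), Nrarp on chromosome 2 (25180758 to 25183339, plus strand) and Hes1 on chromosome 16 (30064384 to 30067796, plus strand). Of the progenitor genes, Kit lies on chromosome 5 (75574916 to 75656722, plus strand) and Lyl1 on chromosome 8 (84701457 to 84704715, plus strand). Hhex lies on chromosome 19 (37434810 to 37440731, plus strand) and Erg on chromosome 16 (95359169 to 95586593, minus strand). Runx2 lies on chromosome 17 (44495987 to 44814797, minus strand). The RefSeq start of Notch1 lies inside the span that GENCODE gives the gene.

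Library totals were 18546570 to 25836799 estimated counts in transgenic, 21662210 to 35637813 in knockout-labelled and 17955743 to 26586220 in control libraries. Nfkbid itself was at 208 ± 72.1 CPM in the transgenic group (counts per 1000000 on scaled library sizes, mean ± SD of 5 mice), 31.6 ± 4.30 CPM in the knockout-labelled group (5 mice) and 32.7 ± 2.87 CPM in the control group (6 mice). The gene's counts therefore show the transgene and do not show the ablation named by the labels, and the libraries are called knockout-labelled throughout. The mouse identifiers of all controls have 1 prefix and those of all other mice another, so that genotype and series of mice cannot be told apart in any comparison with controls. Cd4 (414 to 771 TPM) and Cd8a (1026 to 1635 TPM) were high in every library, as the labelled cell type requires.

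Ranked by TPM, the authors' deposited level per transcript length, the receptors and Dtx1 had the highest medians, with Runx2 next and the progenitor genes lower. Notch1 had the highest level, with a median of 38.3 TPM over the 16 libraries (32.7 to 48.5). Dtx1 (median 11.2 TPM, 7.39 to 30.3) and Notch3 (10.5 TPM, 7.21 to 15.2) came next, and their ranges overlapped. Runx2 followed at 4.60 TPM (3.13 to 7.24), a range that touched that of Notch3. Kit (1.00 TPM), Lyl1 (0.822 TPM) and Hes1 (0.787 TPM) were near one another, with ranges that overlapped, and Nrarp was at 0.271 TPM (0.120 to 0.626). Hhex (0.133 TPM) and Erg (0.0549 TPM) were at the bottom, with at most 6 and 5 estimated counts in a library. Notch1 RNA was thus well measured in these libraries, while Hhex and Erg RNA was near the limit of detection.

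**Figure D1:**
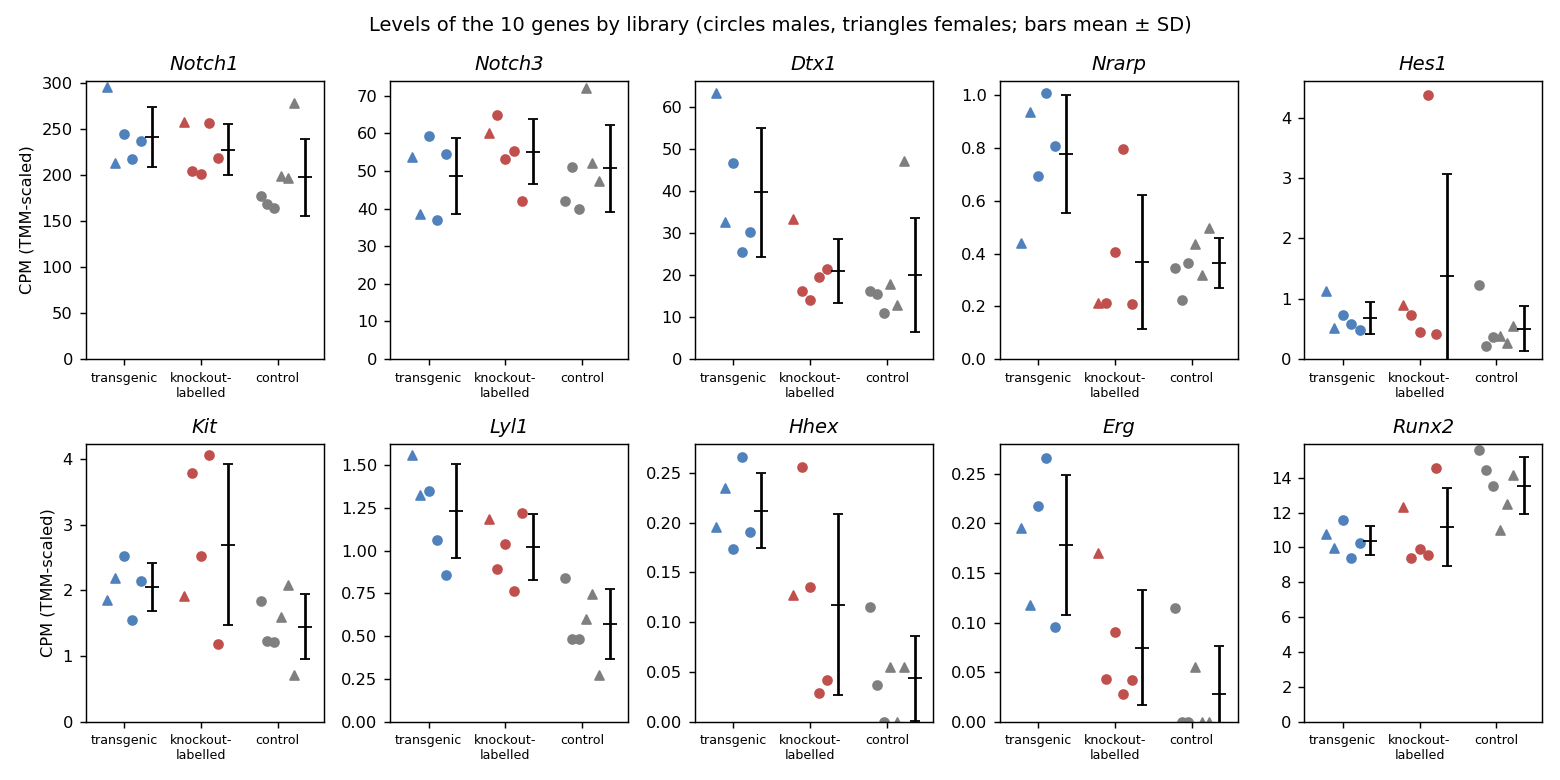
CPM of each of the 10 genes in every library, by group, with the mean and SD beside the points (circles males, triangles females; the y axes start at 0, where the lower SD bars of Hes1 in knockout-labelled and Erg in control libraries end). Lyl1 and Hhex of the 5 transgenic libraries lie above all 6 controls, while single libraries stand apart for Hes1 (knockout replicate 4, 4.38 CPM) and for Dtx1 and Notch1 (control replicate 6, 47.2 and 279 CPM).

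In transgenic libraries, Dtx1, Nrarp and Lyl1 were about 2 times as high as in controls, with smaller changes of Notch1, which was higher, and Runx2, which was lower. Thus 4 of the 8 tested members rose and 1 fell (edgeR quasi-likelihood test, Benjamini-Hochberg adjusted p under 0.05 over all 14933 genes), while 38.6% of all genes were called in that comparison, 23.0% higher and 15.6% lower. In knockout-labelled libraries, Kit and Lyl1 rose and 0 members fell, while 26.4% of all genes were called, 16.4% higher and 10% lower. The median log2 fold change of the 8 tested members was 0.46 in transgenic and 0.30 in knockout-labelled libraries against controls, beside 0.03 and 0.02 over all genes tested. These comparisons share the controls. Between transgenic and knockout-labelled libraries, edgeR called 0 of the 8 members and 1.17% of all genes (1.07% higher, 0.0938% lower), DESeq2 called 0 of the 7 to which it gave an adjusted p, and 2 members (Dtx1 and Nrarp) had an unadjusted p under 0.05.

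**Figure D2:**
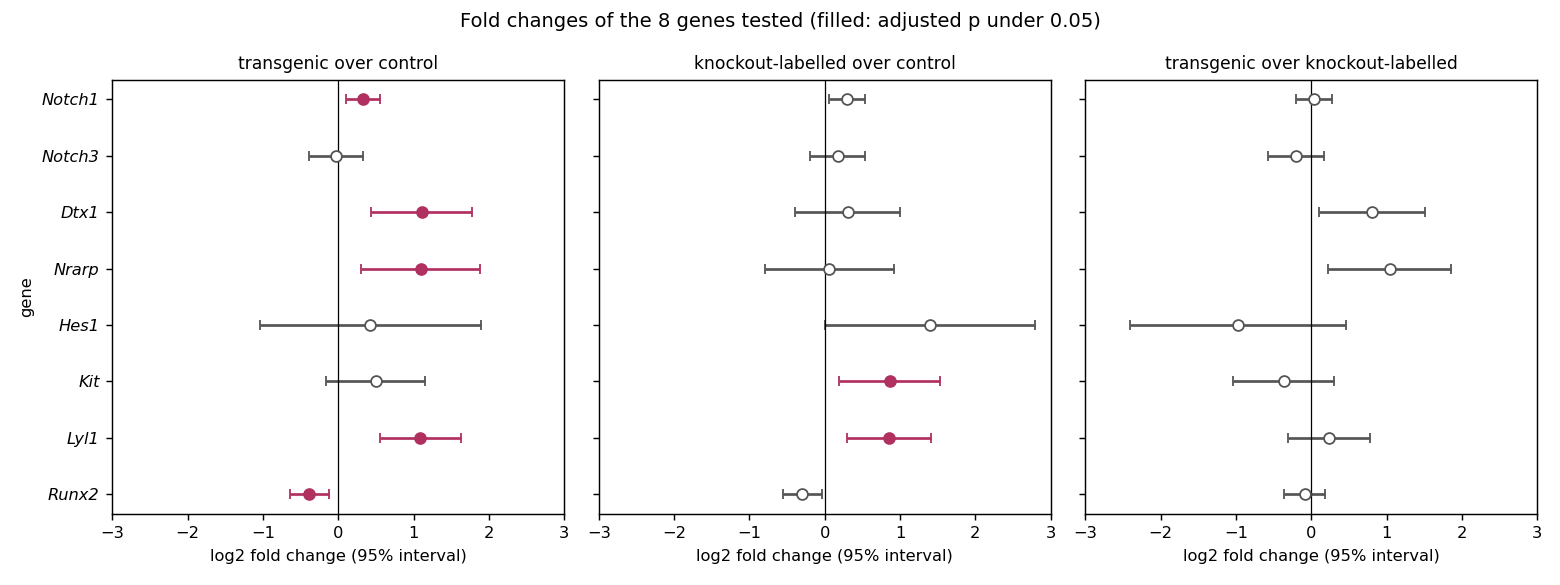
Log2 fold changes of the 8 tested genes with their 95% intervals in the 3 comparisons; filled points passed the adjusted p threshold of 0.05. Dtx1 (1.11), Nrarp (1.10) and Lyl1 (1.09) have the highest transgenic over control values, and the knockout-labelled over control interval of Hes1 is the widest of the 8 in that comparison (0.01 to 2.79).

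Notch1 was modestly higher in transgenic mice, most plainly among males. Transgenic libraries 1 to 5 had 295, 213, 244, 218 and 237 CPM, and knockout-labelled libraries 1 to 5 had 258, 204, 201, 256 and 219 CPM. Controls had 164 CPM at the lowest, a median of 187 and 279 CPM at the highest. The highest control, replicate 6, lay above all other libraries but transgenic replicate 1, so the groups overlapped. Among males the transgenic libraries (218 to 244 CPM) and the knockout-labelled libraries (201 to 256 CPM) lay above the 3 control males (164 to 178 CPM). Notch1 rose in transgenic libraries (log2 fold change 0.33, SE 0.10, edgeR adjusted p = 0.0212; in males alone 0.43, adjusted p = 0.00862). Over the alternatives its adjusted p ran between 5.5e-04 and 0.105, and the call was lost without a sex term (0.0825) and without control replicate 2 (0.0732), control replicate 3 (0.0801), transgenic replicate 1 (0.105) or transgenic replicate 5 (0.0679), and without control replicate 1 and knockout replicates 1 to 3 together (0.0575). In knockout-labelled libraries it was not called (0.29, SE 0.11, adjusted p = 0.0546; range over the alternatives 0.00434 to 0.244), although it was called with library totals alone (0.0379), with DESeq2 (0.0466), with only the groups compared (0.0471), in males alone (0.37, adjusted p = 0.0172), without control replicate 6 (0.00594) and without transgenic replicate 2 (0.0168). It was also called there with the replicate number as a block (0.00434) and without control replicate 6 and knockout replicate 4 together (0.0107). Transgenic and knockout-labelled libraries differed by 0.03 (95% interval -0.20 to 0.27).

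Notch3, the receptor that marks early thymocytes and is itself a Notch target, was not called in any comparison. It had 53.7, 38.6, 59.3, 37.0 and 54.4 CPM in transgenic and 60.0, 64.9, 53.2, 55.3 and 41.9 CPM in knockout-labelled libraries. Controls had 39.8 to 72.1 CPM with a median of 49.1, so that the 3 groups overlapped widely. The log2 fold changes were -0.03 (95% interval -0.39 to 0.32) in transgenic and 0.17 (-0.19 to 0.54) in knockout-labelled libraries against controls.

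Dtx1, the most abundant of the 3 targets, was about 2 times as high in transgenic libraries. Transgenic libraries had 63.3, 32.7, 46.7, 25.6 and 30.3 CPM, and knockout-labelled libraries had 33.4, 16.2, 14.0, 19.6 and 21.5 CPM. Controls had 10.9 CPM at the lowest, a median of 15.8 and 47.2 CPM at the highest. Every transgenic library lay above 5 of the 6 controls, and the exception was again control replicate 6. Dtx1 averaged 39.7 ± 15.4 CPM in transgenic libraries (SD, n = 5) and 20.0 ± 13.5 CPM in controls (SD, n = 6). It rose by a log2 fold change of 1.11 (SE 0.31, edgeR adjusted p = 0.0130). The call was kept in all 16 fits that left out 1 library (log2 fold change 0.93 to 1.38) and in males alone (1.25, adjusted p = 0.00949), and it was lost without a sex term (adjusted p = 0.0509) and without control replicate 1 and knockout replicates 1 to 3 together (0.0515, the highest over the alternatives; lowest 6.7e-04). It was not called in knockout-labelled libraries (0.30, SE 0.32, adjusted p = 0.519). Between transgenic and knockout-labelled libraries the difference was 0.80 (95% interval 0.10 to 1.51), with an adjusted p of 0.405 in edgeR over all genes.

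Nrarp, whose product limits the Notch signal that induces it, was also higher in transgenic libraries, at a far lower level than Dtx1. Within the transgenic group the library with the most Dtx1, replicate 1, had the least Nrarp. Its CPM in transgenic libraries was 0.439, 0.937, 0.695, 1.01 and 0.810. In knockout-labelled libraries it was 0.212, 0.213, 0.406, 0.795 and 0.210 CPM. Controls had 0.222 to 0.497 CPM with a median of 0.354, so that 4 of 5 transgenic libraries lay above all controls. Nrarp rose in transgenic libraries by 1.10 on the log2 scale (SE 0.36, edgeR adjusted p = 0.0247; range over the alternatives 0.0058 to 0.0811) and was not called in knockout-labelled libraries (0.06, SE 0.39, adjusted p = 0.931). The call was lost in males alone (0.0681) and without control replicate 1 (0.0521), control replicate 2 (0.0752), control replicate 3 (0.0545), transgenic replicate 2 (0.0811) or transgenic replicate 4 (0.0658). Against knockout-labelled libraries the difference was 1.04 (SE 0.38, adjusted p = 0.290), and it was called without knockout replicate 4 (1.56, adjusted p = 0.0353; range over the alternatives 0.032 to 0.796). Each value rests on 4.68 to 28.1 estimated counts, and 79.4% of the exonic bases of Nrarp are shared with the antisense gene Gm38287 (mean 0.140 CPM). Whether counting used strand is not stated, so the reads of the pair may not be separable.

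Hes1 was low, and 1 library carried its mean. Transgenic libraries had 1.12, 0.508, 0.738, 0.585 and 0.476 CPM. Knockout-labelled libraries had 0.891, 0.724, 0.451, 4.38 and 0.421 CPM, and controls had 0.222 to 1.23 CPM with a median of 0.374. Knockout replicate 4 held 154 of the 355 estimated counts of Hes1 in all libraries. The knockout-labelled over control value of 1.40 (SE 0.64, edgeR adjusted p = 0.120) fell to 0.27 (adjusted p = 0.705) without that library, and without control replicate 1 it was called (2.03, adjusted p = 0.0481; range over the alternatives 0.026 to 0.705). It was also called without control replicate 1 and knockout replicates 1 to 3 together (3.04, adjusted p = 0.0260). The transgenic over control value was 0.43 (95% interval -1.04 to 1.90).

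Mature single-positive cells are the next stage, and most of their genes, like Notch1, Dtx1 and Nrarp, were higher in transgenic libraries. Among knockout-labelled libraries Nrarp did not follow them: replicates 1 and 5 had the highest sums of the list below (1131 and 1126 CPM) and 0.212 and 0.210 CPM of Nrarp. The 11 genes of that list summed to 1254 to 1639 CPM in transgenic, 895 to 1131 CPM in knockout-labelled and 771 to 1203 CPM in control libraries, with control replicate 6 the highest control. In transgenic libraries 8 of the 11 rose, beside 23.0% of all genes, and the 8 included Plac8 (log2 fold change 2.34), Ccr7 (0.90), Klf2 (0.89) and Ms4a6b (0.75). Their part in the values of the Notch genes was not tested. In a bulk library, fewer cells of a type and less RNA per cell cannot be told apart.

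Kit was higher in some knockout-labelled libraries. It had 1.85, 2.19, 2.52, 1.54 and 2.14 CPM in transgenic libraries and 1.91, 3.79, 2.52, 4.06 and 1.18 CPM in knockout-labelled libraries. Controls had 0.717 to 2.08 CPM with a median of 1.41. Knockout replicates 2, 3 and 4 and transgenic replicates 2, 3 and 5 lay above all controls, while knockout replicate 5 lay below the control median. Kit passed the test in knockout-labelled libraries by 0.86 on the log2 scale (SE 0.31, edgeR adjusted p = 0.0474) and not in transgenic libraries (0.50, SE 0.30, adjusted p = 0.204). The transgenic over knockout-labelled difference itself was -0.36 (95% interval -1.03 to 0.31, adjusted p = 0.851). The call of Kit was kept in 3 of the 16 fits that left out 1 library, those without control replicate 5, knockout replicate 1 or knockout replicate 5. Without control replicates 1, 2, 3, 4 or 6 the adjusted p was 0.0566, 0.129, 0.122, 0.0565 or 0.0723. Without knockout replicates 2, 3 or 4 it was 0.120, 0.0749 or 0.145, and without transgenic replicates 1, 2, 3, 4 or 5 it was 0.0672, 0.0592, 0.0528, 0.0646 or 0.0680 (range over the alternatives 0.0106 to 0.174). The call was also lost with RLE size factors (0.0534), with library totals alone (0.0508), without the filter (0.0755), with only the groups compared (0.109) and in males alone (0.0839). Mast cells also express Kit, and of their 7 markers 5 were at 0 in every knockout-labelled and every control library and 2 in every transgenic library. The list summed to 1.00 to 2.46 CPM in transgenic, 0.455 to 1.19 CPM in knockout-labelled and 0.0534 to 3.37 CPM in control libraries.

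Lyl1, a basic helix-loop-helix factor of early progenitors, was the member that rose in both groups. Transgenic libraries had 1.56, 1.33, 1.35, 1.06 and 0.857 CPM. Knockout-labelled libraries had 1.19, 0.894, 1.04, 0.767 and 1.22 CPM, and controls had 0.276 to 0.842 CPM with a median of 0.544. All 5 transgenic libraries lay above all 6 controls, as did 13.7% of all tested genes, and 4 of 5 knockout-labelled libraries did. Lyl1 rose in transgenic libraries by 1.09 on the log2 scale (SE 0.25, edgeR adjusted p = 0.00261) and in knockout-labelled libraries by 0.85 (SE 0.25, adjusted p = 0.0205). The transgenic call was kept in all 16 fits that left out 1 library and was lost in males alone (0.83, adjusted p = 0.0844; range over the alternatives 0.00112 to 0.0844). The knockout-labelled call was lost in males alone (adjusted p = 0.129) and without control replicate 2 (0.0581), control replicate 3 (0.0523) or knockout replicate 1 (0.0634; range over the alternatives 0.0076 to 0.129). Transgenic and knockout-labelled libraries differed by 0.24 (95% interval -0.31 to 0.78). Nfix, named after its values were seen, overlaps Lyl1 on the opposite strand by 4 exonic bases and also rose in transgenic libraries (1.00, SE 0.16, adjusted p = 1.8e-04).

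Hhex and Erg, 2 further progenitor factors, gave a few reads per library. Hhex had 23 estimated counts over the 5 transgenic, 14 over the 5 knockout-labelled and 6 over the 6 control libraries. Its level was 0.174 to 0.266 CPM in transgenic, 0.0284 to 0.255 CPM in knockout-labelled and at most 0.115 CPM in control libraries. Control replicates 3 and 5 had 0 counts, which allows up to 0.121 and 0.160 CPM (3 counts, counting error only), below the observed level of every transgenic library. The transgenic libraries held 4 to 6 counts and the other controls at most 3. Counting error was not applied to these values, so the bound does not show that the groups are apart. Erg had 19 counts over transgenic, 9 over knockout-labelled and 4 over control libraries, with 0 counts in control replicates 2, 3, 5 and 6. In a fit without the filter (26905 genes), Hhex (2.09 on the log2 scale, SE 0.68, edgeR adjusted p = 0.0303) and Erg (2.35, SE 0.79, adjusted p = 0.0363) rose in transgenic libraries, beside 11.0% of all genes. In that fit 7.31% of all genes rose in knockout-labelled libraries, and Hhex (1.23, adjusted p = 0.341) and Erg (1.15, adjusted p = 0.481) were not called there. Endothelial cells express Erg, and Cdh5, which marks them, was at 0.0953 to 0.352 CPM in transgenic, at most 0.0852 CPM in knockout-labelled and at most 0.0548 CPM in control libraries, while Emcn was at 0 in all 16. The 10 endothelial and stromal markers summed to 201 to 215 CPM in transgenic, 208 to 231 CPM in knockout-labelled and 201 to 221 CPM in control libraries, nearly all of it Pecam1 and Col1a2.

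B cells and myeloid cells express Lyl1 and Hhex too, and their markers were higher in the same libraries. The 12 B cell markers summed to 94.8 to 162 CPM in transgenic, 8.69 to 77.4 CPM in knockout-labelled and 8.33 to 27.7 CPM in control libraries, and 10 of 11 tested rose in transgenic libraries. The 14 macrophage and dendritic cell markers summed to 24.9 to 32.4 CPM in transgenic, 12.3 to 23.1 CPM in knockout-labelled and 11.5 to 20.8 CPM in control libraries. Of 11 tested, 8 rose in transgenic libraries, where 23.0% of all genes rose. No marker of either list was at 0 throughout a group. Their part in the Lyl1, Hhex, Erg and Kit values was not tested. In knockout replicates 4 and 5, whose B cell sums (8.69 and 9.43 CPM) lay within the control range, Lyl1 was at 0.767 CPM, inside the control range, and at 1.22 CPM, above it. Without the 4 libraries with the most class II transcripts outside the transgenic group (control replicate 1 and knockout replicates 1 to 3), the knockout-labelled over control value of Lyl1 was 1.09 (adjusted p = 0.0867). Only knockout replicates 4 and 5 were left in the knockout-labelled group of that fit.

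Runx2 was the single tested member that fell. It had 10.8, 9.96, 11.6, 9.41 and 10.2 CPM in transgenic libraries and 12.3, 9.41, 9.92, 9.57 and 14.6 CPM in knockout-labelled libraries. Controls had 11.0 to 15.6 CPM with a median of 13.9. Of the transgenic libraries 4 lay below all controls, and knockout replicate 5 lay among the higher controls. Runx2 fell in transgenic libraries (-0.39 on the log2 scale, SE 0.12, edgeR adjusted p = 0.0165). The call was kept in all 16 fits that left out 1 library and in males alone (-0.50, adjusted p = 0.0438; range over the alternatives 0.00265 to 0.0438). In knockout-labelled libraries it was not called (-0.30, SE 0.12, adjusted p = 0.0760; range over the alternatives 0.00708 to 0.543), although it was called with DESeq2 (0.0445) and without control replicate 4 (0.0482) or knockout replicate 5 (-0.43, adjusted p = 0.00708). The antisense gene Runx2os1 shares 5.87% of its exonic bases and averaged 0.0813 CPM.

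Counted in both directions together, the other genes of the Notch pathway were called about as often as all genes. In transgenic libraries a smaller share of them rose and a larger share fell. Of the 51 tested in 5 lists, 7 rose (13.7%) and 12 fell (23.5%) in transgenic libraries, beside 23.0% and 15.6% of all genes, and 6 rose and 6 fell (11.8% each) in knockout-labelled libraries, beside 16.4% and 10% of all genes. Of 7 other receptors and ligands 3 were tested: Jag2, a ligand, fell in transgenic libraries (log2 fold change -0.26, SE 0.09, adjusted p = 0.0373), and Notch4, a receptor best known from endothelium, rose in knockout-labelled libraries (1.20, SE 0.30, adjusted p = 0.00752). Dll1, Dll3, Dll4 and Jag1 were at most 0.381 CPM in any library. Of 14 tested processing and glycosylation genes, 2 rose and 1 fell in transgenic libraries. The clearest was Lfng, a glycosyltransferase that makes Notch1 more responsive to Delta ligands, at 8.29 CPM in transgenic, 6.09 CPM in knockout-labelled and 3.67 CPM in control libraries on average (log2 fold change 1.32, SE 0.42, adjusted p = 0.0224 in transgenic). Adam17, a shedding protease, fell (-0.16). In knockout-labelled libraries Poglut1 rose (0.16) and Adam17 fell (-0.20).

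Of the 12 genes of the nuclear complex, 2 rose (Kat2a 0.30, Snw1 0.11) and 2 fell (Ep300 -0.18, Ncor1 -0.23) in transgenic libraries, and in knockout-labelled libraries Kat2a rose (0.28) and Kat2b fell (-0.26). Rbpj, the DNA-binding partner itself, was at 68.6 CPM in transgenic, 66.0 CPM in knockout-labelled and 66.2 CPM in control libraries on average and was not called. Of 12 genes of Notch turnover and inhibition, 6 fell and 0 rose in transgenic libraries, among them the ligand-activating ubiquitin ligases Mib1 (-0.30, adjusted p = 1.9e-04) and Mib2 (-0.37, adjusted p = 9.2e-04) and the receptor-degrading ligases Nedd4 (-0.26) and Itch (-0.18). In knockout-labelled libraries 4 fell (Mib1 -0.20, Mib2 -0.28, Itch -0.16, Cdk8 -0.20) and 0 rose. Nedd4 was also lower in transgenic than in knockout-labelled libraries (-0.32, SE 0.06, edgeR adjusted p = 0.00983), the 1 gene of these 5 pathway lists called there. The medians of the turnover list were -0.18 and -0.17 in the comparisons of transgenic and of knockout-labelled with control libraries, beside 0.03 and 0.02 over all genes. Of all genes, 23.0% rose and 15.6% fell in transgenic libraries, and 16.4% rose and 10% fell in knockout-labelled libraries.

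Other target genes did not share a direction. Of 10 tested, 3 rose and 2 fell in transgenic libraries: Myc (33.4 CPM, against 11.8 CPM in controls), Ptcra (0.60), which encodes the pre-TCR alpha chain, and Gata3 (0.15) rose, while Hes5 (-0.91), a repressor related to Hes1, and Bcl11b (-0.23) fell. In knockout-labelled libraries Myc (1.57), Heyl (1.29) and Ptcra (0.76) rose and 0 fell. These counts stand beside 23.0% of all genes higher and 15.6% lower in transgenic libraries, and 16.4% and 10% in knockout-labelled libraries. Heyl was highest in knockout replicate 4, at 3.75 CPM, the library with the most Hes1. Il2ra (CD25), a target that marks the third double-negative stage, was at 12.1 CPM in transgenic, 9.56 CPM in knockout-labelled and 11.6 CPM in control libraries on average and was not called.

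**Figure D3:**
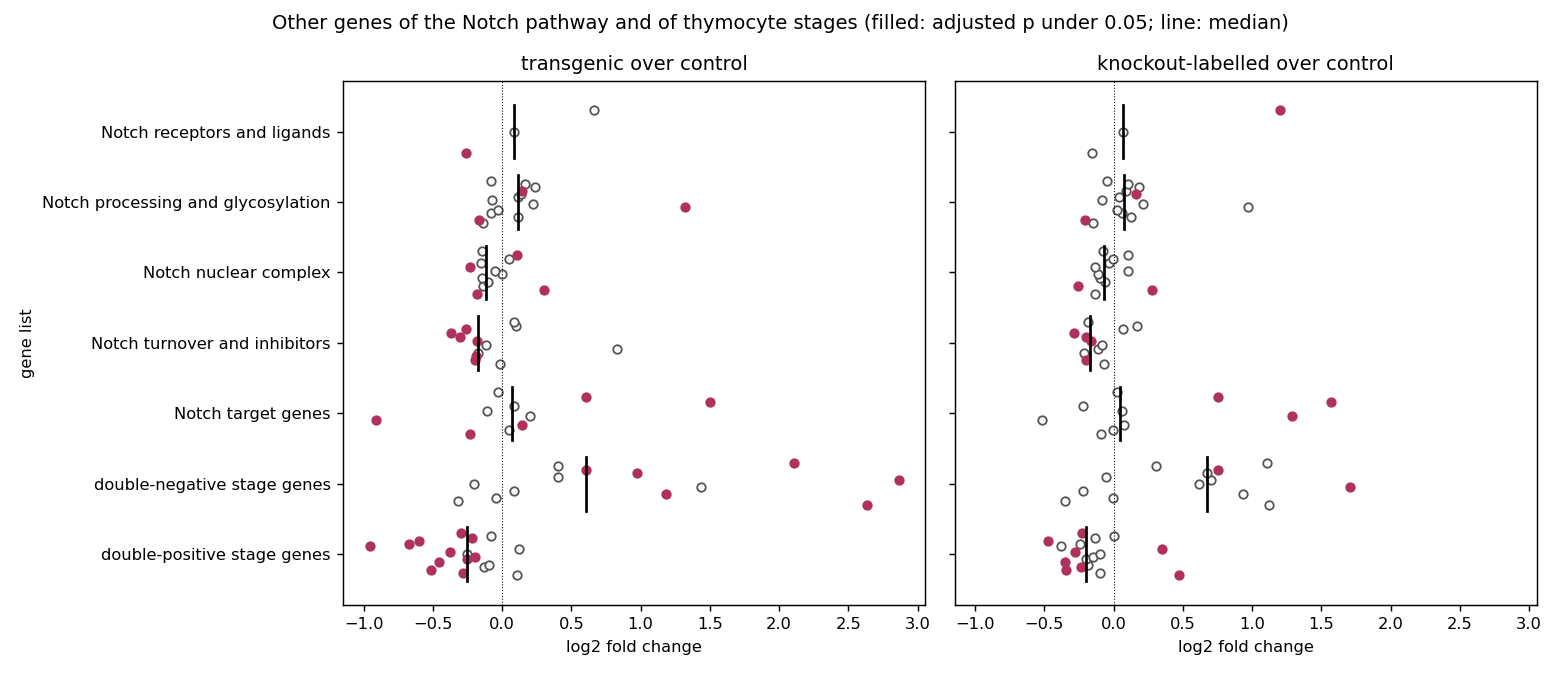
Log2 fold changes over control of the other genes of the Notch pathway and of thymocyte stages, one point per tested gene, filled where the adjusted p was under 0.05, with a line at the list median. The turnover list has 6 filled points below 0 in transgenic libraries and 4 in knockout-labelled libraries, and the double-negative list has 6 filled points above 0 in transgenic libraries and 2 in knockout-labelled libraries.

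Of 20 other double-negative stage genes, 13 were tested, and 6 rose in transgenic libraries and 2 in knockout-labelled libraries, with 0 falling. Among all genes, 23.0% rose and 15.6% fell in transgenic libraries, and 16.4% rose and 10% fell in knockout-labelled libraries. In transgenic libraries Mef2c (2.87, adjusted p = 8.9e-04), Bcl11a (2.63, adjusted p = 8.5e-04), Spi1 (2.11) and Flt3 (1.19) led. All 4 are known from early progenitors and equally from B cells or myeloid cells, whose markers rose beside them. In knockout-labelled libraries Il7r (1.70, SE 0.58, adjusted p = 0.0455) and Ptcra rose. Cd44, a surface protein of the earliest stages, did not pass the test (61.9 CPM in transgenic, 60.6 CPM in knockout-labelled and 64.6 CPM in control libraries), and Gata2, Gfi1b, Tal1 and Hoxa9 were at most 0.174 CPM in any library. The median of the 13 was 0.60 in transgenic and 0.67 in knockout-labelled libraries against controls, and Ptcra is in this list and in that of the targets. Of 17 double-positive stage genes, 11 fell and 0 rose in transgenic libraries, among them Cd4 (-0.45) and, with the largest fall, Rag1 (-0.95, adjusted p = 0.00388), a recombinase of receptor rearrangement. In knockout-labelled libraries 6 fell, among them Cd4 (-0.35), and 2 rose, Aqp11 (0.47) and Mns1 (0.35). All 10 proliferation genes rose in both groups, with sums of 3518 to 4780 CPM in transgenic, 3180 to 4824 CPM in knockout-labelled and 2183 to 3322 CPM in control libraries. Double-negative and early double-positive cells cycle, and the part of these lists in the member values was not tested.

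A pair of libraries shaped several of these values. Control replicate 6 was the highest control for Notch1 and Dtx1, and also for Lfng (10.9 CPM, other controls 1.55 to 4.13), Itgb7 (196 CPM, others 72.9 to 110), Mfng (39.0 CPM, others 23.8 to 30.2) and Trdc (619 CPM, others 418 to 498), and it was the lowest control for Kit and Lyl1. Its 17 double-positive stage genes summed to 11400 CPM, against 13400 to 14680 CPM in the other controls and 10580 to 11640 CPM in transgenic libraries. Knockout replicate 4, the deepest library, was the highest of all 16 for Hes1, Kit, Heyl and Il7r (16.8 CPM, all other libraries at most 6.15), as well as for Ly6d (120 CPM, all others at most 31.7) and Gzma (365 CPM, all others at most 271), and it had the least Trdc (365 CPM). Without both, Dtx1 (1.39, adjusted p = 0.00111) and Notch1 (0.39, adjusted p = 5.5e-04) were called in transgenic libraries, and Nrarp was called between transgenic and knockout-labelled libraries (1.57, adjusted p = 0.0320). In knockout-labelled libraries, also without both, Notch1 was called (0.30, adjusted p = 0.0107) and Kit was not (0.57, adjusted p = 0.173). Leaving them out was chosen after their values were seen.

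**Figure D4:**
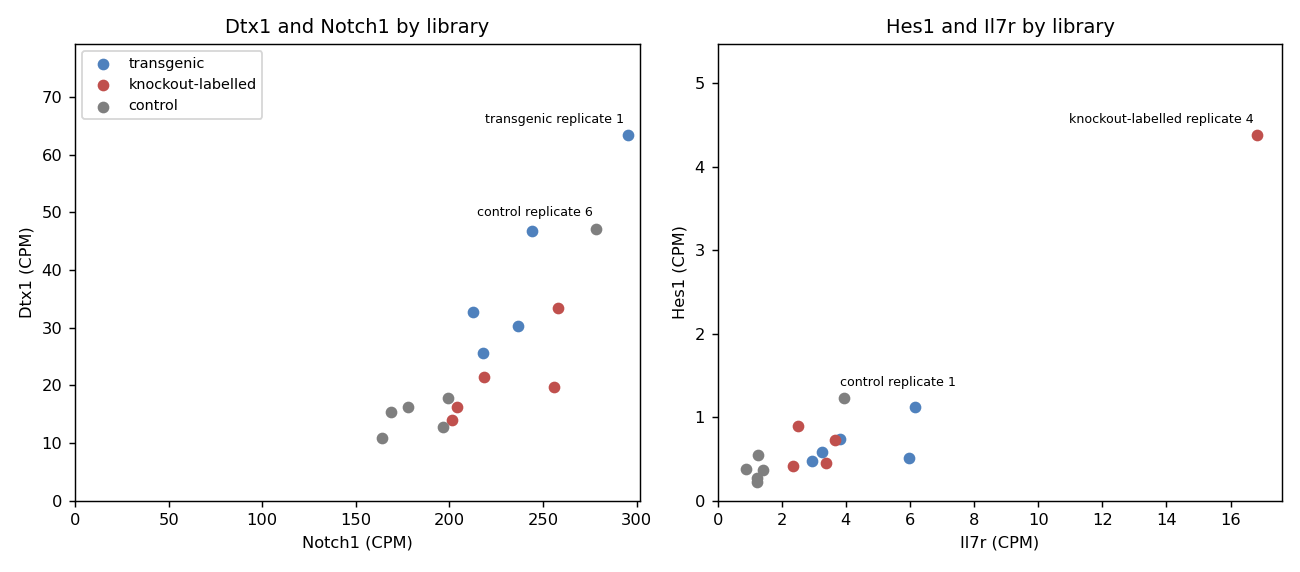
Left, CPM of Dtx1 against Notch1 by library, where control replicate 6 (279 and 47.2 CPM) lies among the transgenic libraries and transgenic replicate 1 is highest in both. Right, CPM of Hes1 against Il7r, where knockout replicate 4 (16.8 CPM of Il7r, 4.38 CPM of Hes1) lies apart from the other 15 libraries.

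For each member called in at least 1 comparison, the genes with the most similar profile were taken by Pearson's r of log2 CPM over the 16 libraries, among 14837 genes. They were Rac2 (r = 0.923) and Mfng (0.921) for Notch1, and Itgb7 (0.928) and Arl6ip5 (0.913) for Dtx1. For Nrarp they were Hspa12a (0.800) and Rnf227 (0.799), and for Kit Tubb2a (0.891) and Cth (0.883). For Lyl1 they were Psmc3ip (0.924) and Coa3 (0.894), and for Runx2 L3mbtl3 (0.938) and Usp24 (0.919). Each value is a description over libraries that also share group, sex and depth.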

How the data were processed

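Total RNA of sorted CD4+CD8+ thymocytes was made into libraries with a stranded KAPA kit, per the labels' protocols. The submitters' processing notes name Bowtie 1.0.0, SAMtools 0.1.18, edgeR 3.24.3 and the build GRCm38 (mm10). The counting program and strand setting were not given in the sources used here. For each library the authors deposited 46517 gene identifiers with 1 estimated count and 1 TPM value per identifier, and 58.7% of the deposited counts above 0 were whole within 1e-06. GENCODE M21 gave symbols for 46005 of the identifiers.

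Estimated counts were rounded to whole numbers before an edgeR test (version 4.0.16, R 4.3.3): filterByExpr by group, TMM scaling, and a robust quasi-likelihood fit of group and sex to all 16 libraries (12 residual degrees of freedom, common biological coefficient of variation 0.128). P-values are two-sided and adjusted by Benjamini-Hochberg over 14933 genes, with a threshold of 0.05. An adjusted p without another name is this edgeR value. The SE is the size of the log2 fold change over the square root of F, and 95% intervals use 12 degrees of freedom. CPM uses TMM-scaled library sizes. TPM served for levels between genes only. The intervals cover the spread between mice, and floors of 3 counts cover counting error only. Replicates are separate mice by their identifiers. A fit of this kind was tested on simulated data of 14933 genes in the 3 comparisons (knockout-labelled over control, transgenic over control, transgenic over knockout-labelled). It recovered 86, 87 and 87 of 100 genes changed 1.5-fold and 98, 97 and 96 of 100 changed 2-fold. The unchanged genes gave 13, 11 and 10 false calls. The changed genes were drawn only from genes with a mean CPM above the levels of Kit, Lyl1, Hes1 and Nrarp. The recovery rates therefore do not describe genes as low as these members.

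The text names the 10 members, Nfkbid, the called genes of each list (the 4 with the smallest p where more than 5 were called) and the 2 genes most like each called member. Other genes were named after their values were seen, and 2 called genes of the lists are not reported here by name. The members and the lists were chosen with earlier results of these data known. Alternatives were RLE size factors, library totals alone, DESeq2 1.42.0, no filter, only the groups compared, no sex term, the replicate number as a block, males only and leaving out each library. Promoter sequences are from RefSeq for GRCm38.p6, which matched 9 of the 10 members, and Hes1 was not matched.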

Additional observations from a re-analysis of the deposited data

Results flagged for a closer look

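Of 30 groups of values tested for a sample far from the others (the 10 members in 3 groups of 5 or 6 libraries), 4 were picked out, and chance picks out about 1 in 20 groups. Hes1 was at 4.38 CPM in knockout replicate 4, against 0.421 to 0.891 CPM in the other knockout-labelled libraries. Hes1 was at 1.23 CPM in control replicate 1, against 0.222 to 0.552 CPM in the other controls. Notch1 was at 279 CPM in control replicate 6, against 164 to 199 CPM in the other controls. Dtx1 was at 47.2 CPM in the same library, against 10.9 to 17.7 CPM in the other controls.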

How the results depend on the processing

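Of the values of the tested members under the alternatives, 547 kept their direction and side of the threshold, 41 lost a call, 15 gained one, and 16 changed sign, 0 of which were called in either fit. In males only, the sign changed for Notch3 (0.16) and Hes1 (-0.027) in transgenic over control. Without the class II-high libraries (control replicate 1, knockout replicates 1 to 3) it changed for Notch3 in knockout-labelled over control (-0.040) and for Notch1 in transgenic over knockout-labelled (-0.088). Without control replicate 6 and knockout replicate 4 it changed for Nrarp in knockout-labelled over control (-0.38) and for Hes1 in transgenic over knockout-labelled (0.11). Leaving out 1 library gave -0.49 to 0.27 for Nrarp (knockout-labelled over control), -0.13 to 0.085 for Notch3 (transgenic over control) and, in transgenic over knockout-labelled, -0.0043 to 0.10 for Notch1, -1.24 to 0.11 for Hes1 and -0.15 to 0.013 for Runx2. Members called higher in knockout-labelled libraries numbered 1 in place of 2 with RLE size factors, no filter, males only and without the class II-high libraries, and 0 to 2 when 1 library was left out. Members called lower there numbered 1 in place of 0 with DESeq2, and 0 to 1 when 1 library was left out. Members called higher in transgenic libraries numbered 2 in place of 4 without a sex term, in males only and without the class II-high libraries, and 2 to 4 when 1 library was left out. Between transgenic and knockout-labelled libraries 1 member, Nrarp, was called without control replicate 6 and knockout replicate 4, and 0 to 1 when 1 library was left out. Genes called numbered 1438 in place of 3942 (knockout-labelled over control) without the class II-high libraries, with 12 libraries left, 3160 in place of 5765 (transgenic over control) in males only, and 342, 278 and 106 in place of 174 (transgenic over knockout-labelled) with DESeq2, no filter and males only. Leaving out 1 library gave 2865 to 4255, 4715 to 5967 and 122 to 226 genes. The cause of these shifts was not tested, and males only and the class II setting also had fewer libraries. DESeq2 gave no adjusted p for Hes1. Of 15 pairs of same-numbered libraries, 2 had a correlation of deviations over 0.1 (-0.06 to 0.25), and the main fit did not pair mice by number. Same-numbered pairs were not set against other pairs, so these values cannot decide whether the numbers pair the mice. With the replicate number as a block, Kit lost its call in knockout-labelled libraries (0.72, adjusted p = 0.136) and Notch1 gained one (0.35, adjusted p = 0.00434), and no other member changed its call. The scaling alternatives moved the median of all genes by at most 0.04 on the log2 scale. Nrarp, Hes1, Hhex and Erg rest on few counts, and both settings without several libraries were chosen after seeing the data.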
